A study of Mus musculus with 22 samples.

Results

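A set of genes that neurons switch on when they regrow a cut axon was followed through mouse spinal cord after injury, in RNA pulled down with astrocyte ribosomes and in the RNA left behind. Members were the gene rows whose symbol is Sprr1a, Gap43, Atf3, Sox11, Gal, Basp1, Stmn4, Klf6 or Klf7, and all 9 were found among 24060 gene rows. They were chosen by name, so their values played no part in the choice of rows, although the group was put together with earlier results of these data known. All mice carried mGFAP-Cre, in which the GFAP promoter of astrocytes drives Cre, and RiboTag, by which ribosomes gain a hemagglutinin (HA) tag once Cre has acted in a cell. The STAT3-KO SCI group (n = 3) also carried floxed STAT3 and received a severe spinal cord injury (SCI), a crush at thoracic level 10. The WT SCI group (n = 4) had the same injury without the floxed allele, and the WT uninjured group (n = 4) had neither. Animals were young adult females, and injured tissue was the central 3 mm of the lesion, taken 14 days after the crush. Each animal gave an HA immunoprecipitate (HA IP) and the flow-through that did not bind, so 11 animals gave 22 libraries in 6 groups. A GFAP promoter marks the cells by Cre history, so the tag can be on ribosomes of any cell in which the Cre was active. HA IP also held RNA of microglia and macrophage markers, given below. An uninjured STAT3-KO group was not analysed here.

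A peripheral neuron whose axon is cut starts a growth program: stress-responsive transcription factors such as ATF3, SOX11 and the KLF proteins change which genes are read, and growth-cone proteins such as GAP43 follow. Neurons of the central nervous system start this program weakly, which is part of why their axons regrow poorly. Several of its genes are also read in glia or immune cells under stress, so their RNA in a lesion is not by itself neuronal.

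Depth and sample composition limited what could be seen. HA IP libraries held 31292491 to 59337089 counts and flow-through libraries 3898755 to 11242654, but the share of HA IP counts on Rn45s, a precursor of ribosomal RNA, was 52.2% to 89.2% in STAT3-KO SCI, 89.0% to 96.2% in WT SCI and 12.6% to 26.7% in WT uninjured animals. Outside the rows Rn45s, Lars2 and Mir6236, which hold ribosomal reads, WT SCI flow-through libraries held as few as 91626 counts, so that 3 counts there equalled 32.7 CPM (counts scaled per 1e6) of that remainder. Levels below are on another scale, CPM scaled to TMM-adjusted library sizes. There, 14 Sprr1a counts in the flow-through of WT SCI animal 9935 came to 27.6 CPM. The scale is that of each fraction, so HA IP and flow-through CPM are not compared directly. The targeted gene, Stat3, had 7.85, 10.1 and 12.3 CPM in STAT3-KO SCI HA IP, against 26.3 to 66.2 CPM in WT SCI HA IP, and fell by 2.17 ± 0.34 on the log2 scale (SE; edgeR quasi-likelihood test, adjusted p = 0.00331). Summed CPM of 10 astrocyte markers was 2685 to 3484 in STAT3-KO SCI, 3198 to 5566 in WT SCI and 4118 to 5048 in WT uninjured HA IP. In the flow-through of those groups, on its own scale, the sum was 322 to 708, 743 to 1013 and 264.5 to 313.3. A sum does not show its parts. In HA IP, Gfap was called lower in STAT3-KO SCI than in WT SCI (-2.13 ± 0.32, adjusted p = 0.00247). The other listed astrocyte markers were not called in that comparison.

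The counts of an animal's fractions were nested. In each of the 11 animals the HA IP count was at least as large as the flow-through count of the same animal in all but 0 to 3 of the 24060 rows. In 30 pairings of an HA IP with the flow-through of another animal of its group, 109 to 12654 rows were below, with a median of 1333.5. Counts were equal and above 0 in 396 to 1432 rows within an animal, and Sprr1a was such a row in every WT uninjured mouse: 47, 4, 10 and 8 counts in HA IP and the same 47, 4, 10 and 8 counts in flow-through. Flow-through totals came to 10.7% to 22.1% of HA IP totals. The labels used here say nothing of reads shared between the fractions. Counts with the flow-through count of the same animal taken off are named "HA IP less flow-through", a choice made after the data were seen. HA IP calls of members are given in both versions, and other HA IP values are from deposited counts unless said otherwise.

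**Figure D1:**
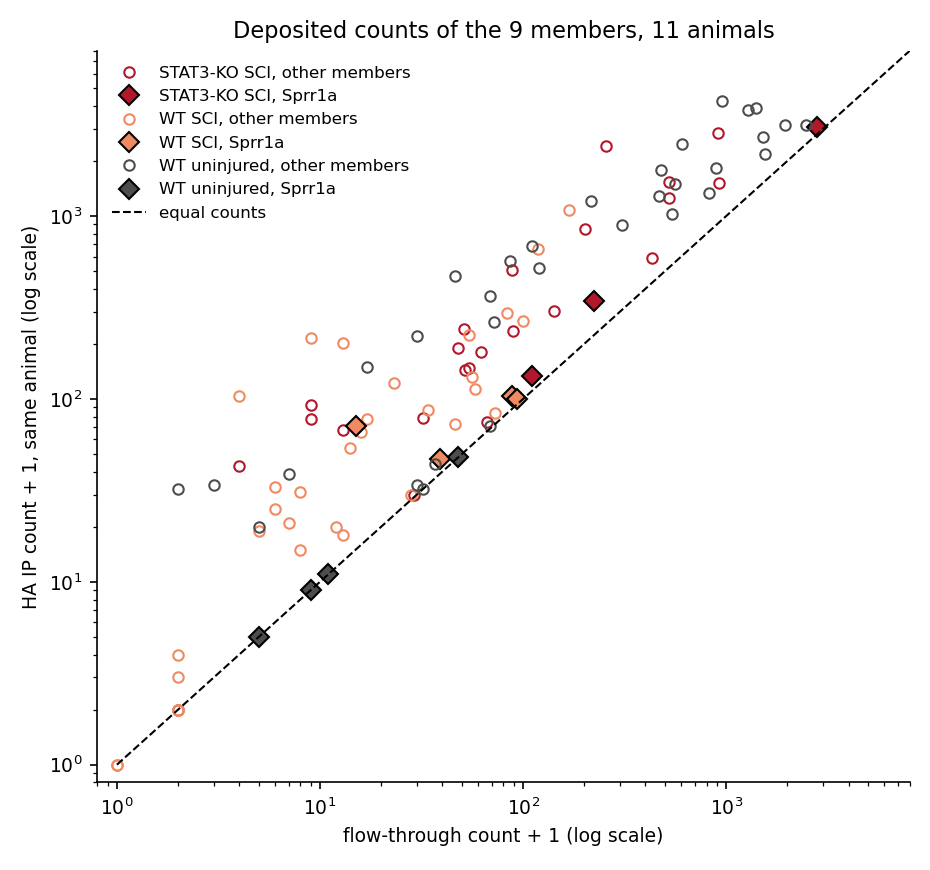
Deposited HA IP count plus 1 (y axis, log scale) against flow-through count plus 1 of the same animal (x axis, log scale), 1 point per member and animal. No point lies below the dashed line of equal counts, and the WT uninjured Sprr1a diamonds lie on it.

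Promoter sequence was available for 7 members in the RefSeq table (GRCm38.p6), as 250 bases before and 50 after the start. Sprr1a, Atf3 and Sox11 are shown because they had the largest injury differences in deposited HA IP counts. Of the 7, only Sprr1a held an AP-1 site, the element bound by JUN and FOS dimers (TGANTCA, the same on both strands), and it held 2, at bases -146 to -140 and -116 to -110 from the start. AP-1 letters occur in 7.81% of the 32851 promoters of the table. None of the 7 held TGACGTCA (ATF/CREB, 1.79% of promoters) or TTCNNNGAA (STAT, 8.30%), and 6 of the 7, all but Sprr1a, held a GC box (GGGCGG or CCGCCC, 35.7%). Below, the 250 bases before the start run 5′ to 3′ on the minus strand of each gene, with the AP-1 letters of Sprr1a and the GC boxes of Atf3 and Sox11 in capitals. GC boxes of Atf3 at -180 and -176 overlap. Starts are those of RefSeq. The start of Atf3 lies inside the GENCODE vM21 gene, not at its 5′ end, and that of Sox11 lies upstream of the GENCODE gene. Bases after the start were found in a GENCODE transcript for Atf3, and on neither strand for Sprr1a or Sox11. A match is a run of letters, not a site shown to be used.
Sprr1a, chr3:92485882-92486131: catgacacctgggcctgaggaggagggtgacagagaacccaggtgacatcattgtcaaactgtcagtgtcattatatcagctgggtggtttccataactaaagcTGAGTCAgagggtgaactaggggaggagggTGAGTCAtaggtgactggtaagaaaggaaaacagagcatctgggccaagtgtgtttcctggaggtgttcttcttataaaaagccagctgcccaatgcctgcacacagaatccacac
Atf3, chr1:191183334-191183583: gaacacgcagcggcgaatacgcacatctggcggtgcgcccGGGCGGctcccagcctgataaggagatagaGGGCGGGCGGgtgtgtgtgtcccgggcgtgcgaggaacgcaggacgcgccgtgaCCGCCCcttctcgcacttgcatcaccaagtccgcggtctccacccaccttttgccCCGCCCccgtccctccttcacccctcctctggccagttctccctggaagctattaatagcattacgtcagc
Sox11, chr12:27342719-27342968: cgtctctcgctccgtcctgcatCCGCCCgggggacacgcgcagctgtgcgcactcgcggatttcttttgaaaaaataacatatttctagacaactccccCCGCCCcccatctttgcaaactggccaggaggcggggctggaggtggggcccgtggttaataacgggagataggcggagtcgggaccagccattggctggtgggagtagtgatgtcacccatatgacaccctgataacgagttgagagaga

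After injury of wild-type cord, 5 of the 9 members were higher in HA IP from the deposited counts: Sprr1a, Atf3, Sox11, Stmn4 and Klf6. Across all 14764 genes tested, 15.8% were higher. The median log2 difference was 1.89 over the 9 members and 0.0 over all genes tested. With the flow-through counts taken off, 5 of 8 tested members were higher, against 11.2% of all genes: Sprr1a, Atf3, Sox11 and Stmn4 again, and Gap43 in place of Klf6. No member was lower in either version.

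Atf3 (chr1:191170296-191218039 in GENCODE vM21, GRCm38), a stress-induced transcription factor of the ATF/CREB family, had 0.978, 2.15, 5.06 and 4.94 CPM in WT SCI HA IP, against 0.0917, 0.198, 0.202 and 0.0663 CPM in WT uninjured HA IP. Every injured library was above every uninjured one, with a log2 difference of 4.59 ± 0.69 (SE, adjusted p = 8.06e-05). Less flow-through, WT SCI kept 2, 8, 2 and 27 counts, and the difference was 3.04 ± 0.99 (adjusted p = 0.036). That call is lost on leaving out any of the 4 WT uninjured libraries or WT SCI animal 9596, with adjusted p between 0.0802 and 0.122. In flow-through, Atf3 had 1.97 to 19.9 CPM in WT SCI and 0.0159 to 0.26 CPM in WT uninjured animals, a log2 difference of 6.90 ± 0.67 (adjusted p = 1.09e-08).

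Sox11 (chr12:27334264-27342574), a SoxC transcription factor of immature neurons that drives axon growth genes, had 10.4, 11.65, 5.23 and 18.2 CPM in WT SCI HA IP, against 1.54, 1.14, 0.912 and 0.917 CPM in WT uninjured HA IP. The groups did not overlap. The log2 difference was 3.34 ± 0.47 (adjusted p = 4.29e-05), and 3.27 ± 0.55 less flow-through (adjusted p = 0.000476). Its flow-through rose as well, by 3.30 ± 0.63 (adjusted p = 0.000206), but WT SCI animal 9596 had 33.7 CPM there against 2.32 to 9.86 CPM in the other 3 animals.

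Klf6 (chr13:5861482-5870394), a zinc-finger factor that promotes axon growth when supplied to central neurons, had 25.1, 9.73, 19.5 and 5.69 CPM in WT SCI HA IP, against 5.26, 3.58, 2.87 and 4.19 CPM in WT uninjured HA IP. It rose by 1.89 ± 0.45 (adjusted p = 0.00482). Less flow-through, WT SCI animal 9596 kept 11 of 83 counts, and the difference of 1.41 ± 0.64 did not pass (adjusted p = 0.123). Without animal 9596 it was 1.81 and passed (adjusted p = 0.0154). Klf7 (chr1:64029447-64122282), its close relative, did not pass: it had 0.652 to 4.19 CPM in WT SCI and 2.23 to 4.43 CPM in WT uninjured HA IP (log2 difference -0.73 ± 0.58, adjusted p = 0.363). Less flow-through the Klf7 difference was -0.88 (adjusted p = 0.439), and -2.24 (adjusted p = 0.0416) without WT SCI animal 9843.

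Sprr1a (chr3:92483952-92485895) encodes a small proline-rich protein of the skin barrier that injured sensory neurons switch on and that aids neurite outgrowth. It had 22.8, 11.65, 8.02 and 6.79 CPM in WT SCI HA IP, against 0.139, 0.0209, 0.0612 and 0.0279 CPM in WT uninjured HA IP, a log2 difference of 7.53 ± 0.70 (185-fold, adjusted p = 6.71e-07). Less flow-through, 56, 16, 8 and 7 counts were left in WT SCI and 0 in each WT uninjured animal. With 3 counts over the 4 uninjured libraries as the limit that a count of 0 allows, the WT SCI mean of Sprr1a was at least 1670-fold higher, and at least 400.4-fold higher without animal 9935, which held most of what was left. These bounds leave out the spread between the WT SCI animals. Each uninjured 0 is a difference of equal deposited counts, so the bounds also rest on taking off the flow-through. In flow-through Sprr1a had 27.6, 67.4, 28.0 and 31.35 CPM in WT SCI against 0.160 to 0.748 CPM in WT uninjured animals (log2 difference 6.51 ± 0.50, adjusted p = 1.99e-10).

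Stmn4 (chr14:66344296-66361680), a stathmin that binds tubulin and loosens microtubules, had 72.3, 74.1, 51.3 and 73.7 CPM in WT SCI HA IP, against 11.2, 22.3, 15.1 and 13.5 CPM in WT uninjured HA IP. The groups did not overlap, and the log2 difference was 2.13 ± 0.32 (adjusted p = 7.38e-05). Taking off the flow-through left it at 2.30 ± 0.35 (adjusted p = 0.000202). Its flow-through difference was also a rise, of 1.32 ± 0.30 (adjusted p = 0.00163).

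Gap43 and Basp1 are growth-cone membrane proteins that organise actin at the plasma membrane, and they differed between the fractions. Gap43 (chr16:42248442-42340651) had 6.52, 22.85, 21.1 and 14.6 CPM in WT SCI HA IP, against 7.96, 9.51, 7.85 and 11 CPM in WT uninjured HA IP. The deposited difference of 0.85 ± 0.35 did not pass (adjusted p = 0.0771), with WT SCI animal 9935 the lowest at 20 counts, and without that animal it was 1.10 (adjusted p = 0.00886). Less flow-through, Gap43 had 5.11, 23.6, 23.1 and 18.2 CPM in WT SCI and 4.55 to 5.55 CPM in WT uninjured HA IP, a rise of 1.76 ± 0.44 (adjusted p = 0.00887). In flow-through Gap43 fell: 11.8, 9.29, 16.2 and 2.73 CPM in WT SCI, against 24.1, 38.5, 25.95 and 38.9 CPM in WT uninjured animals (log2 difference -1.79 ± 0.42, adjusted p = 0.00175). Those WT SCI values rest on 6, 12, 22 and 8 counts.

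Basp1 (chr15:25363277-25413764) had 5.87 to 11.3 CPM in WT SCI and 6.26 to 9.35 CPM in WT uninjured HA IP, and the groups overlapped. Less flow-through it had 5.11, 4.97, 11.7 and 6.66 CPM in WT SCI against 2.67 to 3.26 CPM in WT uninjured HA IP, which no longer overlapped, but the difference of 1.28 ± 0.48 did not pass (adjusted p = 0.0675). It passed without WT SCI animal 9935 (1.40, adjusted p = 0.0366) or 9874 (1.42, adjusted p = 0.0365). In flow-through Basp1 fell to 7.89, 10.1, 11.1 and 18.7 CPM in WT SCI, against 39.3, 35.5, 30.3 and 30.9 CPM in WT uninjured animals (log2 difference -1.41 ± 0.33, adjusted p = 0.00203).

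Gal (chr19:3409915-3414544), which encodes the neuropeptide galanin, was at the limit of detection in WT SCI, whose libraries held 0, 1, 0 and 1 counts in HA IP and the same in flow-through. STAT3-KO SCI animals held 1, 4 and 74 counts in HA IP and 1, 4 and 65 in flow-through. WT uninjured animals held 33, 43, 31 and 70 counts in HA IP, and 29, 36, 31 and 68 in flow-through. No difference passed in HA IP (adjusted p = 0.318) or flow-through (adjusted p = 0.198). Less flow-through, 4, 7, 0 and 2 Gal counts were left in WT uninjured HA IP, and Gal had too few counts for the tests between conditions.

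In flow-through as a whole, 5 of 9 members were higher in WT SCI (Sprr1a, Atf3, Sox11, Klf6 and Stmn4; 16.7% of all 12685 genes) and 2 were lower (Gap43 and Basp1; 14.3% of all genes). Klf6 had 24.5 to 42.05 CPM in WT SCI flow-through against 2.52 to 7.54 CPM in WT uninjured animals, a rise of 2.67 ± 0.37 (adjusted p = 3.18e-06). Neuron markers were lower there, as Gap43 and Basp1 were: the summed CPM of 15 was 632 to 1253 in WT SCI and 3364 to 4221 in WT uninjured flow-through, and 11 of the 15 were lower (median log2 difference -1.80). In HA IP the same sum was 156 to 348 in WT SCI and 506 to 868 in WT uninjured animals, or 57.95 to 154 and 127 to 167 less flow-through, with none of the 15 at 0 in all libraries of a group. Summed CPM of 12 microglia and macrophage markers was 629.5 to 2411 in WT SCI and 11.35 to 25.9 in WT uninjured HA IP, 110 to 698 and 6.71 to 21.7 less flow-through, and 2868 to 9168 and 33.5 to 68.5 in flow-through. Summed CPM of 8 oligodendrocyte and myelin markers was 5825 to 8492 in WT SCI and 1375 to 1815 in WT uninjured HA IP, or 6259 to 9755 and 1059 to 1542 less flow-through. Summed CPM of 7 oligodendrocyte precursor markers was 511.6 to 614.1 in WT SCI and 153.7 to 269.2 in WT uninjured HA IP, or 559.2 to 693.5 and 184.7 to 292.4 less flow-through, and 7 of the 7 were called higher in both versions. On the scale of flow-through, the oligodendrocyte and myelin sum was 4637 to 5130 in WT SCI and 3208 to 3761 in WT uninjured animals. The precursor sum was 72.9 to 128.5 and 68.7 to 100.4 there. Astrocyte markers moved in both directions in HA IP less flow-through. Gfap was called higher in WT SCI than in WT uninjured animals (1.59 ± 0.24, adjusted p = 0.000194). Slc1a3 (-2.63), Gja1 (-1.99), Gjb6 (-1.83), Aldoc (-0.98) and Aqp4 (-0.94) were called lower, and the other listed astrocyte markers were not called. The part of these cells in the members' differences was not tested. Summed CPM of the 4 motor neuron markers in the HA IP fit was 1.74 to 17.4 in WT SCI and 4.13 to 7.73 in WT uninjured animals. Of these markers, Isl1 was at 0 in every WT SCI HA IP library. Chat was called higher in WT SCI less flow-through (5.60 ± 1.52, adjusted p = 0.0149). Slc18a3 and Slc5a7 were not called there (adjusted p = 0.814 and 0.334). The motor neuron sum in that version was 1.17 to 16.3 CPM in WT SCI and 0.568 to 1.12 CPM in WT uninjured animals. In flow-through, Slc18a3 (-1.51 ± 0.58, adjusted p = 0.0491) and Slc5a7 (-1.66 ± 0.47, adjusted p = 0.0094) were lower. Chat was not called in flow-through (adjusted p = 0.316). In tissue RNA, fewer cells of a type and less RNA per cell cannot be told apart.

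**Figure D2:**
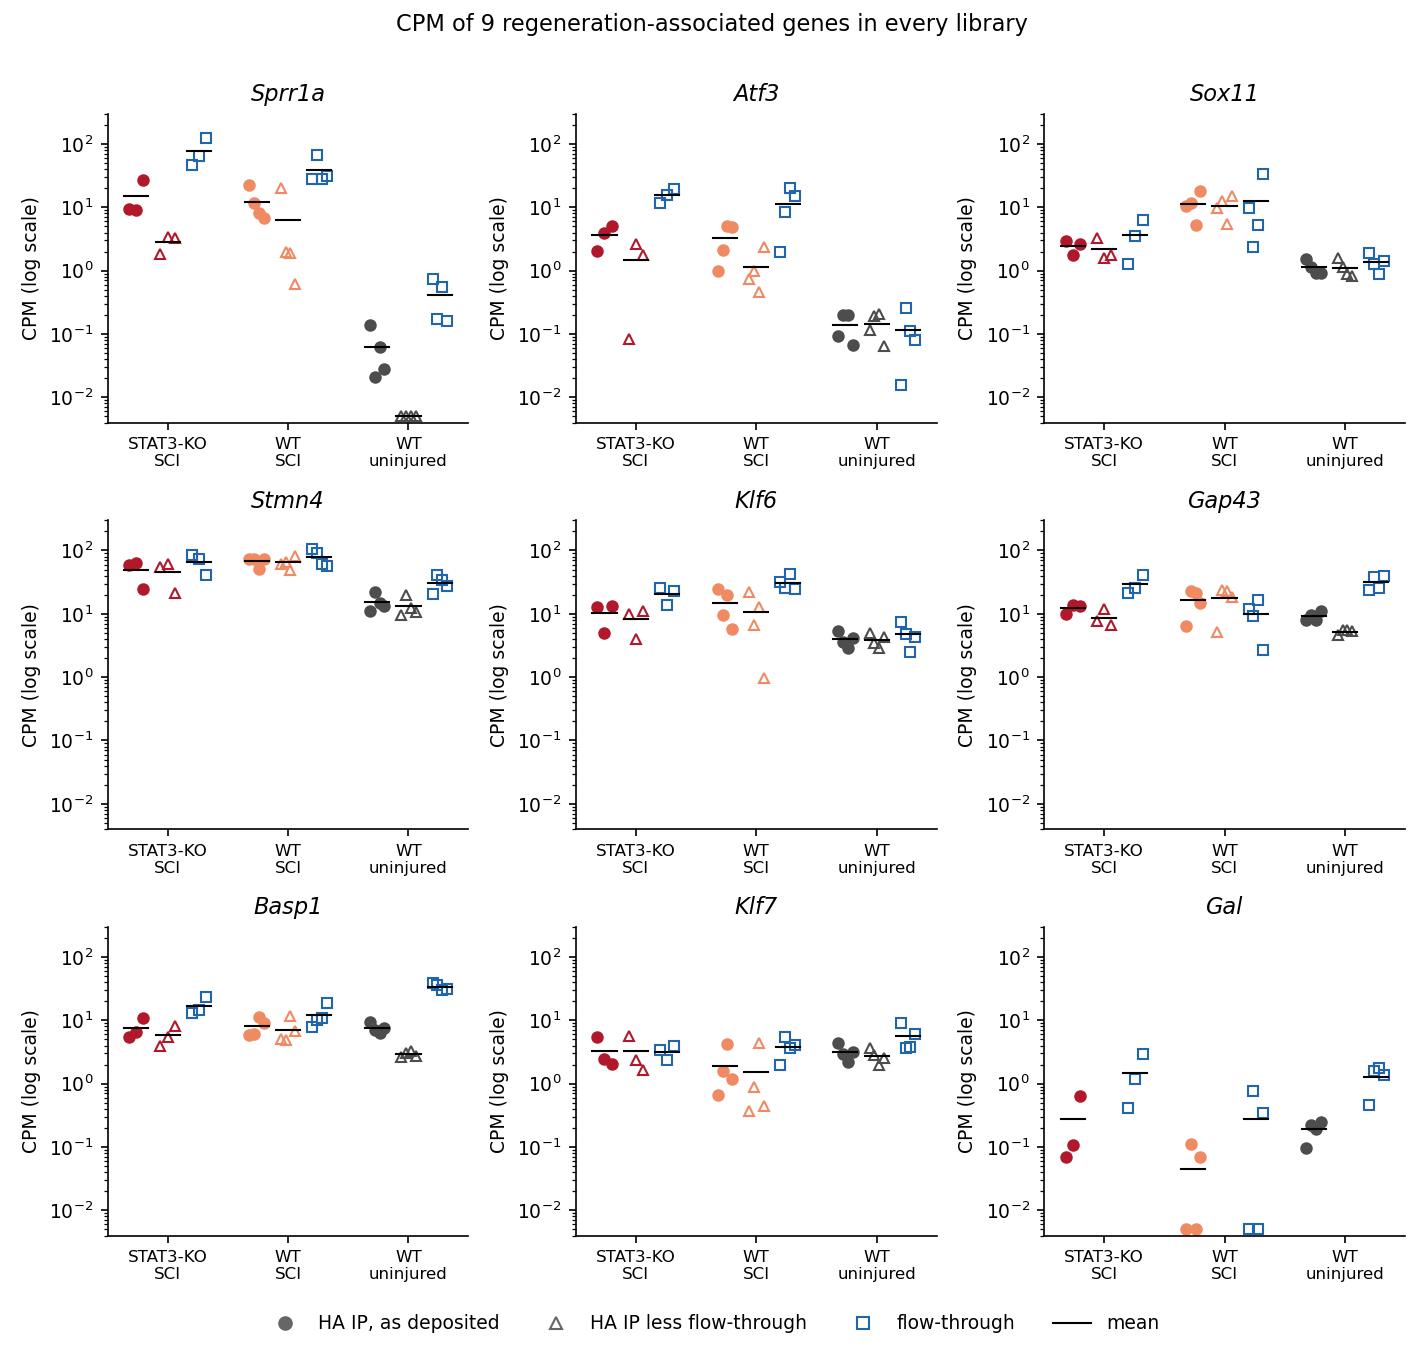
CPM (y axis, log scale; 0 is drawn at the bottom) of each member in every library, by group along the x axis, with filled circles for deposited HA IP, triangles for HA IP less flow-through, squares for flow-through and bars for means. Sprr1a, Atf3, Sox11 and Stmn4 separate every injured library from every uninjured one in deposited HA IP, while Gap43 and Basp1 squares are lower in WT SCI than in WT uninjured animals.

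**Figure D3:**
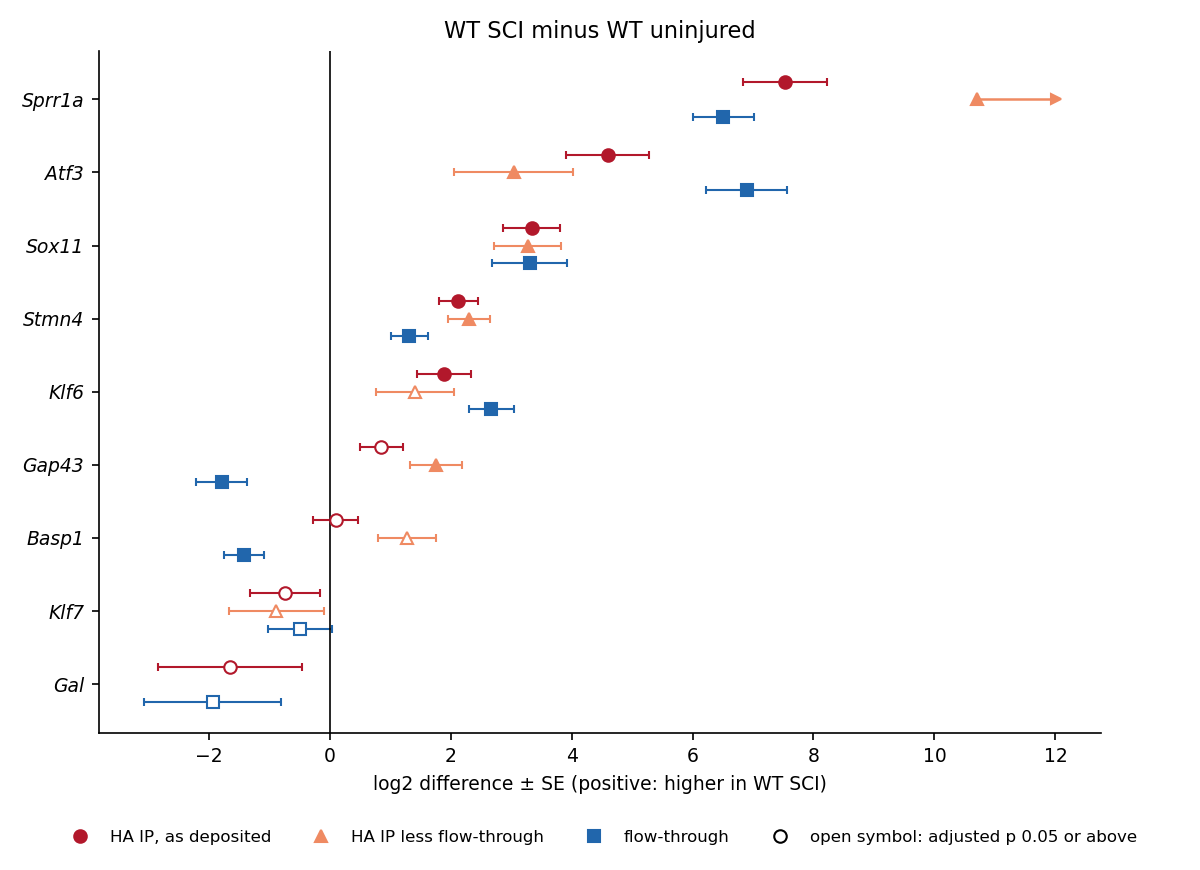
Log2 difference between WT SCI and WT uninjured animals (x axis, bars are SE) for each member in deposited HA IP, HA IP less flow-through and flow-through, with open symbols where the adjusted p is 0.05 or above. The arrow on Sprr1a marks a lower bound of 10.71 for the WT SCI mean, which leaves out the spread between animals. Gap43 and Basp1 flow-through points lie left of 0.

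Whether the injury response was unlike in the fractions was asked with an interaction contrast over all 22 libraries. From deposited counts, the HA IP difference exceeded the flow-through difference by 2.82 ± 0.56 on the log2 scale for Gap43 (adjusted p = 0.00213) and by 1.71 ± 0.47 for Basp1 (adjusted p = 0.0298), while 2.67% of all 15142 genes had such a positive contrast. Less flow-through the values were 3.78 ± 0.62 for Gap43 (adjusted p = 0.000104) and 2.98 ± 0.54 for Basp1 (adjusted p = 0.000337), among 6.05% of genes. Wherever fractions are compared less flow-through, here and below, the same flow-through count is taken off HA IP and then set against it. By construction this can widen a fraction difference, so such calls are not separate support for the deposited ones. A further pair of members passed only less flow-through: Sprr1a at 4.96 ± 1.24 (adjusted p = 0.00849), a fitted value that rests on uninjured HA IP at 0 counts and was lost without WT uninjured animal 42 (4.06, adjusted p = 0.0569), and Atf3 at -3.49 ± 1.11 (adjusted p = 0.0388, against 4.22% of genes with a negative contrast). The Atf3 call was lost without WT uninjured animal 42, 65 or 154 or WT SCI animal 9843 (adjusted p 0.0824 to 0.12). With the animal as a block, the deposited contrast also passed for Atf3 (-2.01, adjusted p = 0.0319) and Stmn4 (1.02, adjusted p = 0.00964), and Stmn4 did so less flow-through (1.27, adjusted p = 0.018). The deposited Basp1 call was lost without any 1 of the 4 WT uninjured animals or WT SCI animal 9843 (adjusted p 0.0536 to 0.106). Thinned to equal counts outside Rn45s, Lars2 and Mir6236, neither deposited contrast passed, with Gap43 at 1.55 (adjusted p = 0.164) and Basp1 at 1.45 (adjusted p = 0.301).

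Within uninjured cord, 5 members were lower in HA IP than in flow-through from deposited counts, among 24.2% of all genes: Basp1 (log2 difference -1.91 ± 0.17, adjusted p = 6.72e-06), Gap43 (-1.55 ± 0.20, adjusted p = 7.95e-05), Gal (-2.47 ± 0.49, adjusted p = 0.00161), Sprr1a (-2.42 ± 0.77, adjusted p = 0.023) and Stmn4 (-0.73 ± 0.24, adjusted p = 0.0263). Less flow-through, Klf7 joined them at -0.76 ± 0.30 (adjusted p = 0.0477), among 29.0% of genes, and the other 5 were lower again. The Sprr1a call in that version was fixed by the subtraction, which left 0 counts in every HA IP library because its counts were equal in the fractions. The Gal call was nearly so, with 4, 7, 0 and 2 HA IP counts left against 29, 36, 31 and 68 in flow-through. Atf3, Sox11 and Klf6 did not pass in either version. The Stmn4 call was lost without HA IP animal 42, 65 or 154 or flow-through animal 79 or 65 (adjusted p 0.0585 to 0.0905), and the Sprr1a call without flow-through animal 42 or 65 (adjusted p 0.0772 and 0.0563). The Klf7 call less flow-through was lost without flow-through animal 42 or 154 or HA IP animal 79, 65 or 154 (adjusted p 0.0896 to 0.135), and with the animal as a block Klf7 passed from deposited counts too (-0.52, adjusted p = 0.0161).

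In WT SCI none of the 8 tested members passed from deposited counts (edgeR; 2 of 8 had an unadjusted p under 0.05, DESeq2 called 1, and 6.25% of all 8466 genes passed in either direction). Gap43 stood at 0.94 ± 0.60 there, against -1.55 in uninjured cord. Less flow-through, Atf3 was lower in HA IP (-3.04 ± 0.88, adjusted p = 0.026, 6.12% of genes lower), a call lost with the animal block (adjusted p = 0.0512) or without flow-through animal 9874, 9843 or 9596 (adjusted p 0.0647, 0.15 and 0.107). Sprr1a was lower with the block, at -1.59 (adjusted p = 0.0197) from deposited counts and -3.65 (adjusted p = 0.00307) less flow-through, and without HA IP animal 9935, at -1.98 (adjusted p = 0.0169) and -4.48 (adjusted p = 0.000364).

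In STAT3-KO SCI, Atf3 (-1.78 ± 0.43, adjusted p = 0.0106) and Sprr1a (-2.10 ± 0.44, adjusted p = 0.00441) were lower in HA IP than in flow-through, among 4.70% of genes. Less flow-through they stood at -2.97 ± 0.67 (adjusted p = 0.005) and -4.43 ± 0.44 (adjusted p = 7.79e-06), joined by Gap43 at -1.43 ± 0.39 (adjusted p = 0.0158), among 8.23% of genes. The deposited Atf3 call was lost without flow-through animal 270 (adjusted p = 0.0845), and the Gap43 call without HA IP or flow-through animal 270 (adjusted p 0.0516 and 0.171). With the animal block, Gap43 (-0.96, adjusted p = 0.0031), Basp1 (-0.89, adjusted p = 0.029), Klf6 (-0.79, adjusted p = 0.0364) and Gal (-2.29, adjusted p = 0.0461) passed as well from deposited counts, and Basp1 (-1.21, adjusted p = 0.0264) and Klf6 (-1.04, adjusted p = 0.0407) less flow-through. Basp1 less flow-through also passed without HA IP animal 270 (-1.57, adjusted p = 0.0377).

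**Figure D4:**
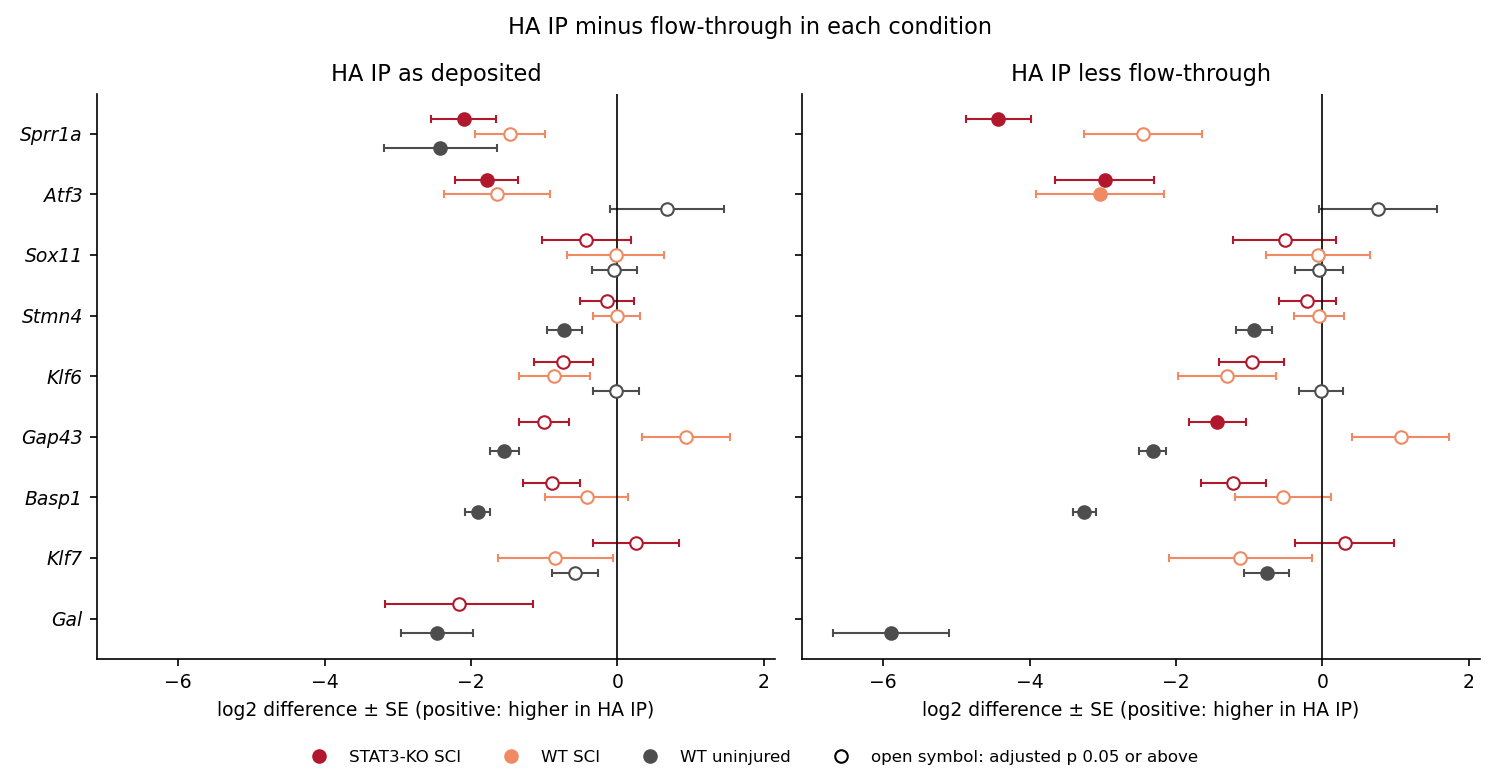
Log2 difference between HA IP and flow-through (x axis, bars are SE) for each member in each condition, from deposited counts at left and less flow-through at right, with open symbols where the adjusted p is 0.05 or above. Gap43 lies left of 0 in STAT3-KO SCI and WT uninjured cord and at 0.94 in WT SCI; Sprr1a in uninjured cord is not drawn at right because its HA IP count was 0.

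Between injured animals with and without STAT3 deletion, 1 member was called in HA IP. Sox11 had 2.94, 1.8 and 2.60 CPM in STAT3-KO SCI HA IP, against 10.4, 11.65, 5.23 and 18.2 CPM in WT SCI HA IP, and fell by 2.23 ± 0.51 on the log2 scale (SE, adjusted p = 0.0347). Of all genes tested, 0.562% were called lower. The 2 groups did not overlap, and the STAT3-KO SCI values lay above all 4 WT uninjured values (0.912 to 1.54 CPM). The call was close to the threshold. It was lost without any of the 3 STAT3-KO SCI animals (adjusted p 0.0737 to 0.153) or WT SCI animal 9596 (adjusted p = 0.0552), with only these groups in the fit (adjusted p = 0.157), and less flow-through, where Sox11 stood at -2.30 ± 0.59 (adjusted p = 0.0609). Less flow-through it passed without WT SCI animal 9935 (-2.34, adjusted p = 0.0494) or 9843 (-2.52, adjusted p = 0.0318). Its direction was the same in each of these. In flow-through Sox11 had 1.26, 3.51 and 6.29 CPM in STAT3-KO SCI against 2.32 to 33.7 CPM in WT SCI, and did not pass (-1.77 ± 0.68, adjusted p = 0.26). Summed CPM of the 15 neuron markers was 196.5 to 438.9 in STAT3-KO SCI and 156 to 348 in WT SCI HA IP. That of 8 oligodendrocyte and myelin markers was 3492 to 4095 and 5825 to 8492, without overlap. Less flow-through the latter sum was 3449 to 4449 and 6259 to 9755. Sums of 7 oligodendrocyte precursor markers (404.9 to 709.5 and 511.6 to 614.1) and 12 microglia and macrophage markers (912.5 to 1196 and 629.5 to 2411) overlapped. The part of any of these cells in the Sox11 difference was not tested.

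The other 8 members did not pass between STAT3-KO SCI and WT SCI in HA IP. Sprr1a had 9.25, 9.12 and 26.6 CPM in STAT3-KO SCI and 6.79 to 22.8 CPM in WT SCI, and Atf3 had 2.03, 3.92 and 5.07 CPM against 0.978 to 5.06 CPM. Stmn4 had 59.4, 64.3 and 24.7 CPM in STAT3-KO SCI (log2 difference -0.46 ± 0.33, adjusted p = 0.505). Less flow-through, 0 of 8 members were called by edgeR, against 1.24% of genes in either direction, with 2 members at an unadjusted p under 0.05 and 1 called by DESeq2 (Sox11). In that version Sprr1a kept 22, 119 and 299 counts, and its difference of -1.06 ± 1.01 was 0.96 without WT SCI animal 9935. In flow-through 0 of 9 members were called by edgeR and 0 by DESeq2, against 0.118% of genes, with 3 members at an unadjusted p under 0.05. Gap43 was nearest, with 21.3, 25.4 and 41.2 CPM in STAT3-KO SCI and 2.73 to 16.2 CPM in WT SCI (1.69 ± 0.44, adjusted p = 0.115). The interaction of genotype and fraction was called for 0 of 9 members by edgeR and 0 by DESeq2 from deposited counts, with 1 at an unadjusted p under 0.05, against 0.0264% of all genes. Less flow-through it was called for 0 of 9 by edgeR and 1 by DESeq2 (Gap43), with 2 at an unadjusted p under 0.05, against 0.107% of genes. Gap43 stood at -2.74 ± 0.66 there (adjusted p = 0.087), and passed without WT SCI animal 9935 (-3.11, adjusted p = 0.0234) or 9843 (-3.07, adjusted p = 0.0483).

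**Figure D5:**
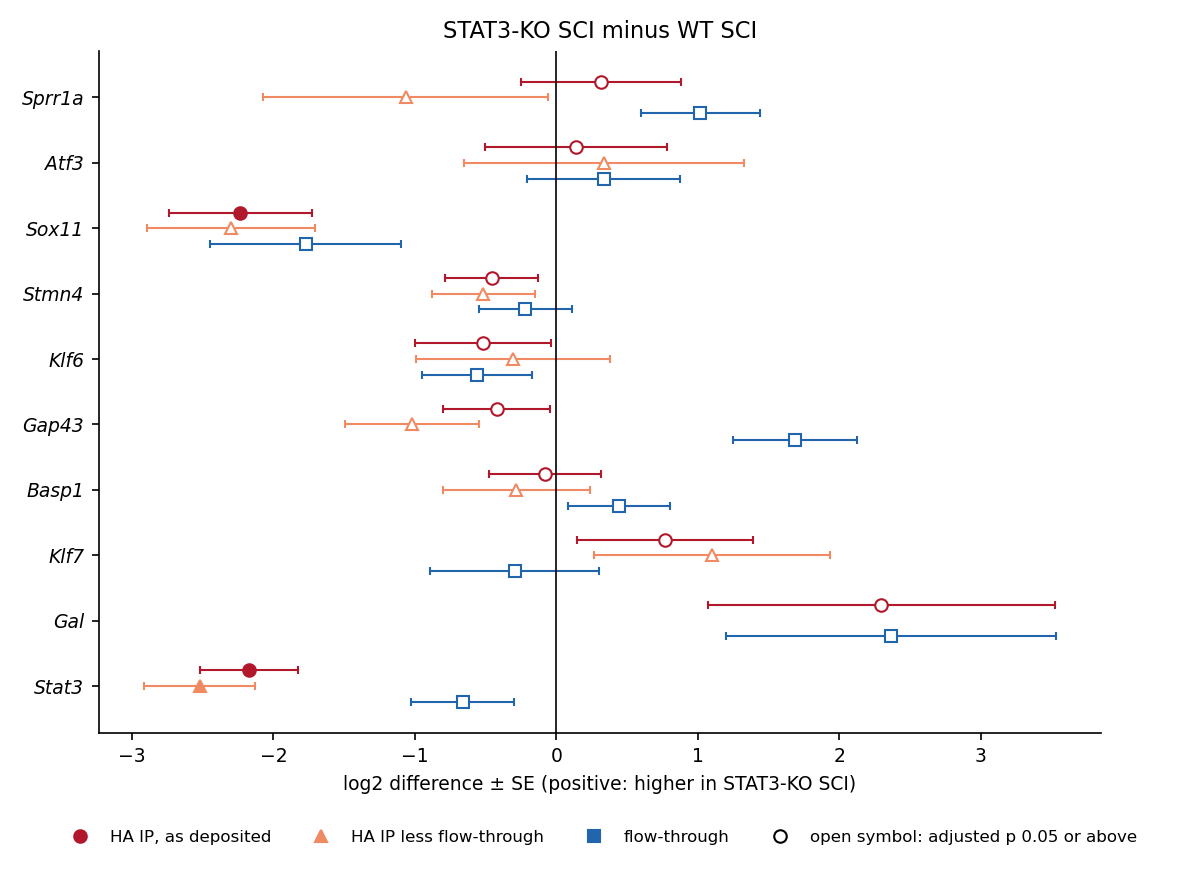
Log2 difference between STAT3-KO SCI and WT SCI (x axis, bars are SE) for each member and for Stat3 in deposited HA IP, HA IP less flow-through and flow-through, with open symbols where the adjusted p is 0.05 or above. Sox11 and Stat3 in deposited HA IP and Stat3 less flow-through are the filled symbols.

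Set against uninjured cord, injured STAT3-KO animals had 3 of 9 members higher in HA IP (7.70% of all genes): Sprr1a (7.85 ± 0.71, adjusted p = 5.45e-07), Atf3 (4.73 ± 0.70, adjusted p = 0.000131) and Stmn4 (1.67 ± 0.33, adjusted p = 0.00192). Less flow-through, the STAT3-KO SCI mean of Sprr1a was at least 761.3-fold higher by the same count limit, which leaves out the spread between animals. Stmn4 rose by 1.78 ± 0.36 (adjusted p = 0.00508), and Atf3 at 3.38 ± 1.01 did not pass (adjusted p = 0.0554), with 4.62% of genes higher. Atf3 passed without STAT3-KO SCI animal 186 (3.90, adjusted p = 0.018), and Klf6 from deposited counts without animal 531 (1.69, adjusted p = 0.0497). Flow-through held 4 higher members (10.4% of genes): Sprr1a (7.53), Atf3 (7.23), Klf6 (2.11) and Stmn4 (1.10, adjusted p = 0.0175, lost without WT uninjured animal 42 or 154 or STAT3-KO SCI animal 186 or 531, adjusted p 0.0619 to 0.132). Basp1 did not pass there (-0.97, adjusted p = 0.0512), but passed without STAT3-KO SCI animal 270 (-1.37, adjusted p = 0.0268). These comparisons share the uninjured animals with the WT SCI ones, so their values are not independent.

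Per kilobase of exon, the order of the members' levels differed between injured and uninjured HA IP. In STAT3-KO SCI, Stmn4 (25.8 ± 11.3 CPM per kb, SD, n = 3) and Sprr1a (18.6 ± 12.5) overlapped in range, followed by Gap43 (8.03 ± 1.31), Basp1 (3.78 ± 1.42), Klf6, Atf3, Klf7, Gal and Sox11 (0.294 ± 0.071). Ranges also overlapped for Basp1 with Klf6, for Klf6 with Atf3, and among the last 3. Less flow-through, Gap43 (mean 5.71 CPM per kb, 4.34 to 7.81) stood above Sprr1a (3.52, 2.28 to 4.17) in STAT3-KO SCI. In WT SCI the order was Stmn4 (35.4 ± 5.8 CPM per kb, n = 4), Sprr1a (15.3 ± 9.0), Gap43 (10.7 ± 4.9), Basp1 (4.00 ± 1.3), Klf6 (3.42 ± 2.02), Atf3, Sox11 (1.37 ± 0.64), Klf7 (0.233 ± 0.193) and Gal, and each neighbouring pair from Stmn4 down to Sox11 overlapped in range. Less flow-through, Gap43 (mean 11.5 CPM per kb) stood above Sprr1a (7.73, 0.771 to 25.35) there too, and the ranges overlapped. In WT uninjured cord Stmn4 (8.10 ± 2.50 CPM per kb) and Gap43 (5.96 ± 0.98) were the highest, while Sprr1a (0.0772 ± 0.0671) and Atf3 (0.0648 ± 0.0328) were the lowest of the 9.

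Relatives of the members were read from lists drawn up for this purpose. Both SoxC relatives of Sox11 were higher in WT SCI than in WT uninjured HA IP, as 15.8% of all genes were, Sox4 by 3.77 ± 0.39 (adjusted p = 2.06e-06) and Sox12 by 2.07 ± 0.56 (adjusted p = 0.0103), and 0 of the 2 were called between STAT3-KO SCI and WT SCI, Sox12 having the smaller p (-1.47 ± 0.61, adjusted p = 0.24). Both MARCKS proteins, actin-binding relatives in function of GAP43 and BASP1, were higher, Marcksl1 by 4.04 ± 0.36 (adjusted p = 4.98e-07) and Marcks by 1.51 ± 0.27 (adjusted p = 0.000458). In flow-through, where Gap43 and Basp1 fell, Marcks rose by 2.74 ± 0.33 (adjusted p = 4.19e-07) and Marcksl1 by 2.55 ± 0.32 (adjusted p = 7.99e-07). Of 3 other stathmins, Stmn2 was lower (-1.01 ± 0.36, adjusted p = 0.0445) in deposited HA IP, where Stmn4 rose, and 0 of 3 were called less flow-through; in flow-through all 3 were lower, against 14.3% of all genes, Stmn2 with the smallest p (-1.88 ± 0.29, adjusted p = 1.69e-05). Of 9 other Klf genes, 8 were tested in HA IP and Klf13 (2.12 ± 0.29, adjusted p = 3.15e-05) and Klf3 (0.97 ± 0.35, adjusted p = 0.0499) rose, against 15.8% of all genes. Less flow-through 7 were tested, and Klf3 at 0.76 ± 0.39 did not pass (adjusted p = 0.165). Of 6 small proline-rich relatives of Sprr1a, 0 were abundant enough to be tested.

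Transcription factors of the injury response rose in 7 of 11 cases in WT SCI HA IP (median log2 difference 1.62, against 0.0 over all genes, 15.8% of which were higher), with the smallest p for Cebpd (4.90 ± 0.54, adjusted p = 3.14e-06) and Stat3 (1.73 ± 0.30, adjusted p = 0.000373), and in 6 of 11 less flow-through, against 11.2% of all genes. Between STAT3-KO SCI and WT SCI, 2 of the 11 were lower, against 0.562% of all genes. They were Cebpd (-3.50 ± 0.57, adjusted p = 0.0041) and Stat3, the targeted gene, whose fall was set by the design. Of 11 growth-cone and cytoskeleton genes, 4 were higher and 1 lower in WT SCI HA IP, and 6 were higher and 1 lower less flow-through (median log2 differences 0.23 and 0.77). Among all 14764 genes tested, 2331 were higher and 1607 lower. Less flow-through, 1595 of 14241 were higher and 1332 lower. From deposited counts Dpysl3 and Dpysl5, collapsin response mediators of the growth cone, rose by 1.69 ± 0.31 (adjusted p = 0.000535) and 2.00 ± 0.42 (adjusted p = 0.0017), and the adhesion molecule Ncam1 fell by 1.00 ± 0.29 (adjusted p = 0.0171). Less flow-through Map1b, a microtubule protein of growing axons, had the smallest p, with a rise of 2.58 ± 0.25 (adjusted p = 4.89e-06). In flow-through 5 of the 11 were lower and 0 higher (median -0.68, against -0.09 over all genes, 14.3% of which were lower), with the smallest p for Ncam1 (-1.22 ± 0.27, adjusted p = 0.00109) and Tubb3, a neuronal tubulin (-1.37 ± 0.33, adjusted p = 0.00233). Of 19 other regeneration-associated genes, 17 were tested in HA IP (median log2 difference 0.57), 4 rose and 1 fell, where 15.8% of all genes rose. Hspb1, a small heat shock protein, rose by 4.88 ± 0.36 (adjusted p = 5.79e-08) and was lower in STAT3-KO SCI than in WT SCI (-5.03 ± 0.42, adjusted p = 3.76e-06). Arg1 rose by 5.98 ± 1.41 (adjusted p = 0.00428), and Flrt3 fell by 2.61 ± 0.75 (adjusted p = 0.0151). Less flow-through 15 were tested, 2 rose (Hspb1 and Tnfrsf12a), against 11.2% of all genes, and Flrt3 fell, while Arg1 had too few counts for the test. Of 8 brakes on axon growth, Socs3, an inhibitor of cytokine signalling, rose by 4.83 ± 0.73 (adjusted p = 9.26e-05), Cacna2d2 fell by 1.29 ± 0.40 (adjusted p = 0.0235), and Socs3 was lower in STAT3-KO SCI than in WT SCI (-4.12 ± 0.83, adjusted p = 0.0201). Of 3 galanin receptors, 2 were tested; Galr3 held 0, 0 and 2 counts in STAT3-KO SCI HA IP, 35, 8, 10 and 0 in WT SCI and 24, 8, 19 and 4 in WT uninjured, and it was lower in STAT3-KO SCI than in WT SCI (adjusted p = 0.0334) and higher in WT SCI than in WT uninjured animals (adjusted p = 0.00276), with animal 9935 holding most of the WT SCI counts.

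Genes whose centred log2 CPM followed a member most closely over the 11 HA IP libraries were found among 3970 genes. Gpnmb, C1qa and Lyz2 were nearest to Sprr1a, at root mean square differences of 1.16, 1.2 and 1.25 on the log2 scale, and all 3 are on the list of microglia and macrophage markers. The same 3 genes, with Lyz2 first at 1.49, were nearest less flow-through. C1qc (0.576) and Tyrobp (0.627) were nearest to Atf3, Otud7b (0.521) to Sox11, Rps23 (0.220) to Gap43, Mbnl1 (0.229) to Basp1, Aatk (0.265) to Stmn4, Arfgef2 (0.385) to Klf6, Gabpa (0.404) to Klf7 and Myl12b (0.817) to Gal. Less flow-through the nearest gene was again Aatk for Stmn4 and Gabpa for Klf7, and another gene for Atf3, Sox11, Gap43, Basp1 and Klf6. The libraries also differ in depth and in ribosomal reads by condition, and the likeness is given as a description.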

How the data were processed

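RNA of spinal cord was sequenced after HA immunoprecipitation of tagged ribosomes and from the unbound flow-through, in 11 animals. The authors deposited raw read counts per gene in 5 tables; CASAVA 1.8.2, edgeR and build mm10 are named in the submitters' processing notes, while no source used here gives the aligner, counter, annotation or strand setting. Of the per-sample columns, 124 that match no sample were not used. Replicate libraries differed beyond sampling noise (lowest chi-square per degree of freedom 4.859).

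Counts were filtered with filterByExpr, scaled by TMM and tested with the quasi-likelihood test of edgeR 4.0.16 in R 4.3.3, with Benjamini-Hochberg adjustment over all genes tested and 0.05 as threshold. Within a fraction all 3 conditions entered 1 fit; fractions were compared within a condition, and their interaction over 22 libraries. Alternatives were RLE scaling, DESeq2 1.42.0, no filter, no ribosomal rows, thinning, fewer groups, an animal block and leaving out libraries. Fractions are paired by animal per the labels' titles. Same-animal deviations of deposited counts correlated at 0.236 to 0.657 over 11 pairs. The nesting of those counts can raise such values by itself, so they do not test the pairing. The tests were run on simulated data with means and depths of the deposited counts and with libraries drawn independently. Nested counts and counts less flow-through were not simulated, so that run does not cover them. Counts less flow-through were added after seeing the data, with 16 negative values set to 0.

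All members enter every count; the text names those a result turns on, with log2 differences only where larger than their SE; of other listed genes, up to 2 called per direction with the smallest p. Members and lists were chosen with earlier results of these data known. Coordinates are from GENCODE vM21, and levels per kilobase use its exon lengths. Within a fraction, p-values measure the spread between animals. The main fits between fractions and of the interaction had no animal term. Libraries of the same animal entered them as separate units, so those p-values measure the spread between libraries. Limits from a count of 0 cover counting error of the uninjured libraries only.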

Additional observations from a re-analysis of the deposited data

Results flagged for a closer look

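Among 51 groups of 4 samples, 4 held a value set apart from the other 3 past Dixon's 95% critical value, where chance alone sets apart about 1 in 20. Klf7 in WT SCI HA IP less flow-through was 4.44 CPM in animal 9843, against 0.365 to 0.871 CPM in the others. Sprr1a in WT SCI HA IP less flow-through was 20.43 CPM in animal 9935, against 0.621 to 1.99 CPM in the others. Sprr1a in WT SCI flow-through was 67.36 CPM in animal 9874, against 27.6 to 31.35 CPM in the others. Stmn4 in WT SCI HA IP was 51.26 CPM in animal 9843, against 72.3 to 74.1 CPM in the others.

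The injury difference was unlike in the 2 fractions for 2 members from deposited counts, by the interaction contrast: HA IP exceeded flow-through by 2.82 for Gap43 and 1.71 for Basp1 on the log2 scale. Less flow-through, the contrast was 3.78 for Gap43, 2.98 for Basp1, 4.96 for Sprr1a and -3.49 for Atf3. In that version the same flow-through counts are taken off HA IP and set against it, which can widen such a contrast by construction.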

How the results depend on the processing

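Counts of genes and of members past the threshold moved with the processing as follows, while no called member changed sign under any alternative run. Of 165 member differences 52 were within 1 SE, and of 2061 values under alternatives 115 changed sign, 0 of them called on either side. Of 1417 values followed, 1306 stayed on their side of the threshold, 55 lost it, 54 gained it and 2 reversed. The cause of each shift was not tested.

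STAT3-KO SCI against WT SCI in HA IP called 171 genes, 903 by DESeq2, 36 with only these groups in the fit and 39 to 343 on leaving out 1 library; 1 member was called, 0 with only these groups, 0 less flow-through and 0 to 1 on leaving out 1 library. STAT3-KO SCI against WT uninjured in HA IP called 1444 genes, 2239 by DESeq2, 927 when thinned, 3585 with only these groups, 842 less flow-through and 848 to 1444 on leaving out 1 library; 3 members were called, and 5 with only these groups. In flow-through, WT SCI against WT uninjured called 3933 genes, and 1330 when thinned. STAT3-KO SCI against WT SCI called 15, with 205 by DESeq2, 131 unfiltered, 4 with only these groups and 2 to 29 on leaving out 1 library; 0 members were called by edgeR, and 1 unfiltered (Gap43). STAT3-KO SCI against WT uninjured called 1769, with 664 when thinned and 2751 with only these groups; 4 members were called, and 2 when thinned.

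HA IP against flow-through called 7250 genes in WT uninjured cord, 3369 in a fit of all 22 libraries; 5 members were called, and 3 to 5 on leaving out 1 library. In WT SCI it called 529, with 936 by DESeq2, 1706 over all 22 libraries, 1096 with the animal block, 942 less flow-through and 255 to 502 on leaving out 1 library; 0 members were called by edgeR, 1 by DESeq2, 1 when thinned, 1 with the block, 1 less flow-through and 0 to 1 on leaving out 1 library. In STAT3-KO SCI it called 1496, 3105 with the block and 802 to 1448 on leaving out 1 library; 2 members were called, 1 over all 22 libraries, 6 with the block and 1 to 2 on leaving out 1 library.

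The injury interaction called 713 genes, 1189 by DESeq2, 277 when thinned, 1934 with the block, 1531 less flow-through and 320 to 866 on leaving out 1 animal; 2 members were called, 1 under RLE, 1 without ribosomal rows, 0 when thinned, 4 with the block, 4 less flow-through and 1 to 2 on leaving out 1 animal. The genotype interaction called 4 genes, 1 under RLE, 13 by DESeq2, 0 when thinned, 31 with the block, 16 less flow-through and 0 to 6 on leaving out 1 animal.

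Less flow-through, STAT3-KO SCI against WT SCI called 176 genes, 1142 by DESeq2 and 39 to 373 on leaving out 1 library, with 0 members by edgeR, 1 under RLE, 1 by DESeq2 and 0 to 1 on leaving out 1 library. STAT3-KO SCI against WT uninjured called 842, 1665 by DESeq2 and 395 to 812 on leaving out 1 library, and WT SCI against WT uninjured called 2927, with 1688 to 3374. HA IP against flow-through in STAT3-KO SCI called 2101, with 1307 to 2152 on leaving out 1 library, and 3 members, 5 with the block; in WT SCI it called 1 member, with 0 to 2. The injury interaction called 1531 genes, 835 to 1847 on leaving out 1 animal, and 4 members, with 2 to 4. The genotype interaction called 16, 279 by DESeq2, 25 with the block and 0 to 68 on leaving out 1 animal, and 0 members, 1 by DESeq2 and 0 to 1 on leaving out 1 animal. Sprr1a in STAT3-KO SCI against WT SCI was -1.06, with -1.46 to 0.96 on leaving out 1 library, and its genotype interaction was -2.03, with -2.76 to 0.055; both were reversed without WT SCI animal 9935. Depth limits Gal and the WT SCI flow-through values most.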
